A study of Mus musculus with 8 samples.

Results

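Protein-coding gene ends held 503 of the 36243 H3R17me2a peaks called in 4 chromatin immunoprecipitation (ChIP) libraries of neonatal mouse cardiomyocyte nuclei. A peak was included when its summit lay within 1 kb of either end of a protein-coding gene span of the RefSeq annotation (GRCm38.p6, the assembly of mm10) on chromosomes 1 to 19, X and Y. Of the peaks of control 1, control 2, knockout 1 and knockout 2, 161 of 12990, 118 of 8742, 83 of 4980 and 141 of 9531 met this rule. The 20422 genes examined did not include 1465 olfactory and vomeronasal receptor genes, named Olfr, Vmn1r or Vmn2r. Strand was known for 16225 of the genes examined, and the 2 ends of those genes were told apart as start and end.

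All mice carried floxed Carm1 alleles (Carm1fl/fl) and were injected on postnatal day 1. Knockout mice received the adeno-associated virus AAV9-Cre, which delivers Cre recombinase, and control mice received AAV9-GFP, which delivers green fluorescent protein. Each group had 2 ChIP libraries, for which peaks were called separately. The hearts were mosaic, so cardiomyocytes that the virus had not reached were present too. Nuclei were sorted by PCM1, a marker of cardiomyocyte nuclei that does not tell infected from uninfected cells, before digestion with micrococcal nuclease. The labels number the libraries but do not say whether they came from separate animals, so the spread between them may be technical. The age at harvest is given only as neonatal. Carm1 itself had no gene-end peak in any of the 4 lists, which does not check the deletion.

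Carm1 is an arginine methyltransferase that acts as a transcriptional coactivator, and H3R17me2a, asymmetric dimethylation of arginine 17 on histone H3, is a mark that it places. Coactivators of this kind are recruited by transcription factors such as nuclear receptors to promoters and enhancers. The start of a gene holds its core promoter, where transcription begins, and the end is where the transcript is cleaved and transcription terminates.

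Gene-end peaks mostly had few fragments, though less often than other peaks did. Taking control 1, control 2, knockout 1 and knockout 2 in this order, their median fragment number at the summit was 7, 8, 10 and 7, against 7, 7, 8 and 7 for all other peaks. Gene-end summits with 10 or fewer fragments made up 83.0%, 67.5%, 57.3% and 77.1%, against 88.2%, 87.7%, 77.7% and 88.9% of other summits. Part of this contrast lay in the chromosome 6 array described further on. Its 6, 10, 13 and 14 gene-end peaks had 14 to 39 fragments. Gene-end summits with 11 or more fragments numbered 27, 38, 35 and 32 with the array and 21, 28, 22 and 18 without it. The lists do not give sequencing depth, and the intervals given here cover counting error only. The fold of a peak is the authors' enrichment over the local background of its own library. It describes a peak within its list and is not compared between libraries as a change. Where a list has no call, the mark may have been present under the threshold.

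The sequences upstream of starts are shown because the genes whose ends were called in more than 1 library often share them with other genes. Each line gives the 250 bases before an annotated start, 5′ to 3′ on the gene's strand, from RefSeq GRCm38.p6. Capitals mark bases that lie in a run of at least 50 bases found, on either strand, in the promoter window of another gene. Gm40367 (chr6:47662342-47662591, plus strand) belongs to a tandem array on chromosome 6, Gm52432 (chrX:65707145-65707394, plus strand) and Gm52436 (chrX:66758563-66758812, plus strand) to a set of predicted genes on chromosome X, Gm3752 (chr14:7488809-7489058, minus strand) to a cluster on chromosome 14, and Serpina1c (chr12:103904951-103905200, minus strand) to the alpha-1 antitrypsin genes. Fam214b (chr4:43046221-43046470, minus strand) and Pgk1 (chrX:106186850-106187099, plus strand) are shown as starts with a called peak over the window and no shared run.
Gm40367: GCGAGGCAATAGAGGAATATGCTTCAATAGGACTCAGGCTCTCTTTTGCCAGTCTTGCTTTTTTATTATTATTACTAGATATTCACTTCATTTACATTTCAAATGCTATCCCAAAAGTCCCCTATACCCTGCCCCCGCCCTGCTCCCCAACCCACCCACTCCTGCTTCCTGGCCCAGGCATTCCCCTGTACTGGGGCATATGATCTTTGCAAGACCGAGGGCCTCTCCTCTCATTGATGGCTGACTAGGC
Gm52432: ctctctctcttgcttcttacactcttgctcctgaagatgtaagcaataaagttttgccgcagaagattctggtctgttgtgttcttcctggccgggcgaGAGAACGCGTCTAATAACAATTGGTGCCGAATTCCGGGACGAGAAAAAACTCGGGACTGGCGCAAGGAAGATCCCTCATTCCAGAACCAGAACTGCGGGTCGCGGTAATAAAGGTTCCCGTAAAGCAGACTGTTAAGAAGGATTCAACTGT
Gm52436: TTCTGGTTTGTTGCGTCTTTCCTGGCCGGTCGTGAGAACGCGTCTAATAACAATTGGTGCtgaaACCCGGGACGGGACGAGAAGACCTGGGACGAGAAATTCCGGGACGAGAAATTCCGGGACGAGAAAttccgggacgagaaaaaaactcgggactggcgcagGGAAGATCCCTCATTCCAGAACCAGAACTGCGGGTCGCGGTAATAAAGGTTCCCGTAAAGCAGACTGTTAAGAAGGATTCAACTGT
Gm3752: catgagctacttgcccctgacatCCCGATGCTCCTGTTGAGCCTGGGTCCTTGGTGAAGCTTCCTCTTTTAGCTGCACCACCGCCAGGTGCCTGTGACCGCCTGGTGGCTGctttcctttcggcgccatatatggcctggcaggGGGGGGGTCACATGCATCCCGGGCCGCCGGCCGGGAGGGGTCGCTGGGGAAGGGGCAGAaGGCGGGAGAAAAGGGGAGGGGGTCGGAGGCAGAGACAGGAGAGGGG
Serpina1c: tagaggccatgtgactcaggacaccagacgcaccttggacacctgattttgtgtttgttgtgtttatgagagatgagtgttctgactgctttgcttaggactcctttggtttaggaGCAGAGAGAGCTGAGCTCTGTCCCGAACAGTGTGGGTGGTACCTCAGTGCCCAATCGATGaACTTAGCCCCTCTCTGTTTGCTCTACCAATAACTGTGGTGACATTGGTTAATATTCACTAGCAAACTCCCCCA
Fam214b: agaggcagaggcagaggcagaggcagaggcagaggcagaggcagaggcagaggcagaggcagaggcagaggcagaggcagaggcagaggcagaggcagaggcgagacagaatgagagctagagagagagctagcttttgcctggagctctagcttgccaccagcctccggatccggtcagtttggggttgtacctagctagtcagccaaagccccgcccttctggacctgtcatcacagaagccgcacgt
Pgk1: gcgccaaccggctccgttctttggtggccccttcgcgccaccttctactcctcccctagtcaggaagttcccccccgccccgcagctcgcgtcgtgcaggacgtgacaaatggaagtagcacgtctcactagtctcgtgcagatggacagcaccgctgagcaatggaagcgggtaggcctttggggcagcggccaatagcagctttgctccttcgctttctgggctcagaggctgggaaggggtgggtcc
All 250 bases of Gm40367 were shared, as were 151 of Gm52432, 211 of Gm52436, 193 of Gm3752 and 133 of Serpina1c. The distal part of the Fam214b window is a run of the repeated unit agaggc. Pgk1 had 17 CpG dinucleotides in these bases and Fam214b had 6.

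The first comparison asked what part of each list lay at gene ends and whether it differed between groups. Gene ends took 1.24% of the peaks of control 1 (95% Clopper-Pearson interval 1.06% to 1.44%) and 1.35% of those of control 2 (1.12% to 1.61%). They took 1.67% of the peaks of knockout 1 (1.33% to 2.06%) and 1.48% of those of knockout 2 (1.25% to 1.74%). Both knockout libraries were above both controls, and the intervals of the 4 libraries overlapped. With n = 2 libraries per group, controls averaged 1.29% ± 0.08 (SD) and knockouts 1.57% ± 0.13, which is 0.278 percentage points more (p = 0.33 by an exact two-sided permutation of the libraries, the lowest value possible for 2 against 2). Within 0.5 kb of an end the difference was 0.0361 percentage points, and for peaks whose −log10 q was 5 or more it was 0.461, in each case with overlapping groups (exact p = 0.667). Without the chromosome 6 array described further on, the shares were 1.20%, 1.24%, 1.42% and 1.34% and the difference was 0.159 percentage points.

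**Figure D1:**
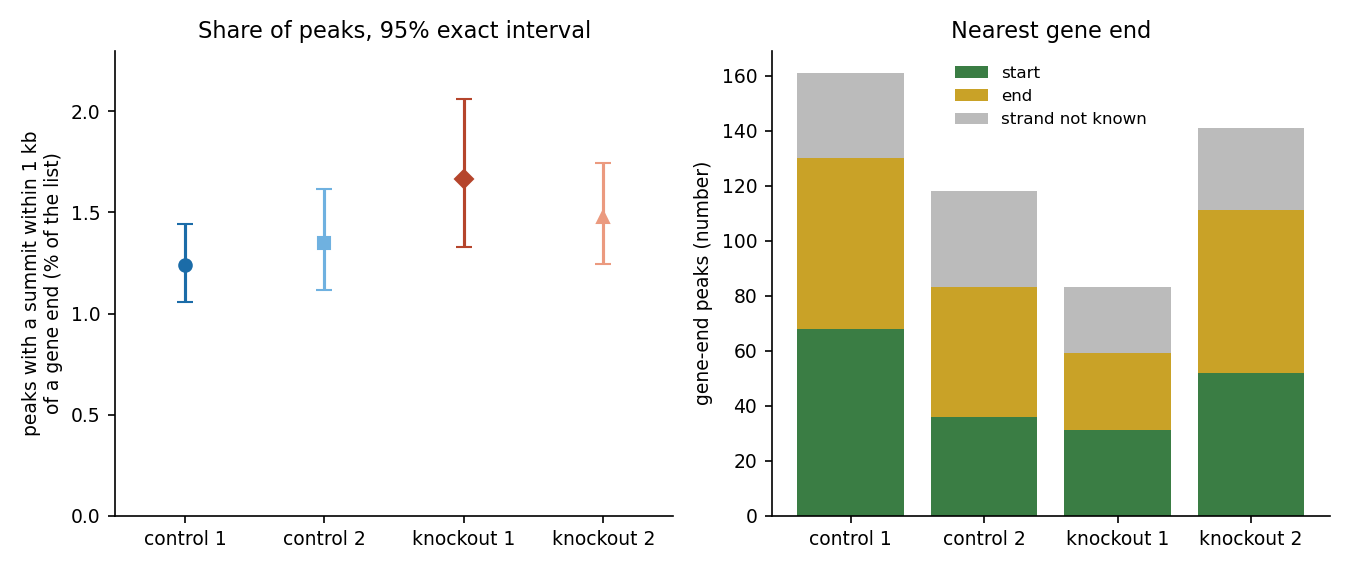
Left, the share of each library's peaks with a summit within 1 kb of a protein-coding gene end, with 95% Clopper-Pearson intervals. Right, the number of gene-end peaks by the nearest end. The shares lie between 1.24% and 1.67%, and starts outnumber ends in 2 of the 4 libraries.

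Neither end of the gene dominated. The nearest gene end was a start for 68, 36, 31 and 52 peaks and an end for 62, 47, 28 and 59 peaks, with strand not known for 31, 35, 24 and 30. Starts thus made up 52.3% and 43.4% of the peaks of known strand in the controls and 52.5% and 46.8% in the knockouts. With n = 2 libraries per group, the means were 47.8% ± 6.3 (SD) and 49.7% ± 4.0, which is 1.85 percentage points apart with overlapping libraries (p = 0.667, exact two-sided permutation of the libraries). The sign of this difference depended on single libraries: it was -2.61 without control 2 and -0.994 without knockout 1. Summits lay inside the span of the gene with the nearest end for 71, 44, 34 and 57 of the gene-end peaks.

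Summits were sparser close to gene ends than far from them in all 4 libraries. Within 1 kb of an end, on both sides together, control 1 had 2.16 summits per Mb, control 2 had 1.58, knockout 1 had 1.11 and knockout 2 had 1.89. Outside genes, 10 to 50 kb from an end, there were 6.24, 4.16, 2.37 and 4.55 per Mb. The density near ends was therefore 34.6%, 38.1%, 47.0% and 41.6% of the distant one, a mean log2 ratio of -1.32 (SD 0.19, n = 4; exact two-sided sign-flip permutation test, p = 0.13, the smallest that 4 libraries allow). For n = 2 libraries per group, the log2 ratio averaged -1.46 ± 0.10 (SD) over controls and -1.18 ± 0.12 over knockouts (p = 0.33, exact two-sided permutation of the libraries). These ratios set both sides of the gene boundary against a distant value from outside genes only. Outside genes alone, the density within 1 kb was 39.1%, 52.0%, 62.6% and 50.3% of the distant one. Inside genes, 10 to 50 kb from an end, there were 3.72, 2.59, 1.49 and 2.79 summits per Mb, fewer than outside at that distance. How much of each distance band reads can be mapped to was not tested.

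**Figure D2:**
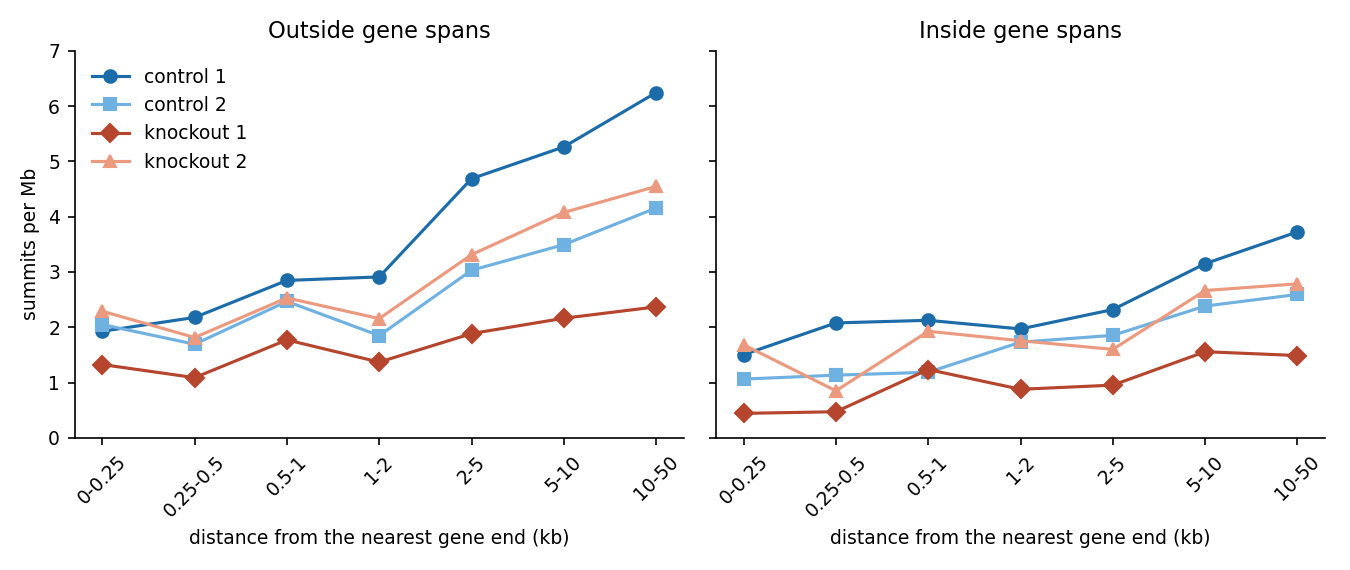
Summits per Mb in bands of distance (kb) from the nearest protein-coding gene end, outside gene spans on the left and inside them on the right, 1 line per library. In every library the band 10 to 50 kb away lies above each band within 1 kb, on both sides.

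The inside of a gene near its ends held fewer summits than the outside. For these densities, inside meant within the span of any gene examined, not only that of the nearest end. Within 1 kb, the density inside spans was 1.95, 1.14, 0.831 and 1.59 summits per Mb and outside spans 2.44, 2.16, 1.48 and 2.29. The log2 difference, outside over inside, averaged 0.65 (SD 0.28, n = 4) and had the same sign in 4 of 4 libraries (exact two-sided sign-flip permutation test, p = 0.13). Where strand was known and the array was left out, this side difference was seen at gene ends. Downstream of the end, past the annotated transcript, there were 42, 28, 19 and 41 summits within 1 kb, and upstream of it, in the last part of the gene, there were 23, 16, 7 and 19. The downstream part was 67.4% ± 4.3 (SD, n = 4) of those summits (exact two-sided sign-flip permutation test against equal parts, p = 0.13). Around starts the counts were 31, 20, 12 and 28 upstream and 39, 14, 15 and 22 downstream, a downstream part of 49.1% ± 7.6 (SD, n = 4; p = 0.75 by the same exact test), with more downstream summits in 2 of 4 libraries. These side counts were chosen after the data were seen. At the distance limit, 17, 20, 7 and 22 summits lay in the last 100 bp inside the 1 kb and 16, 8, 6 and 10 in the next 100 bp beyond it.

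**Figure D3:**
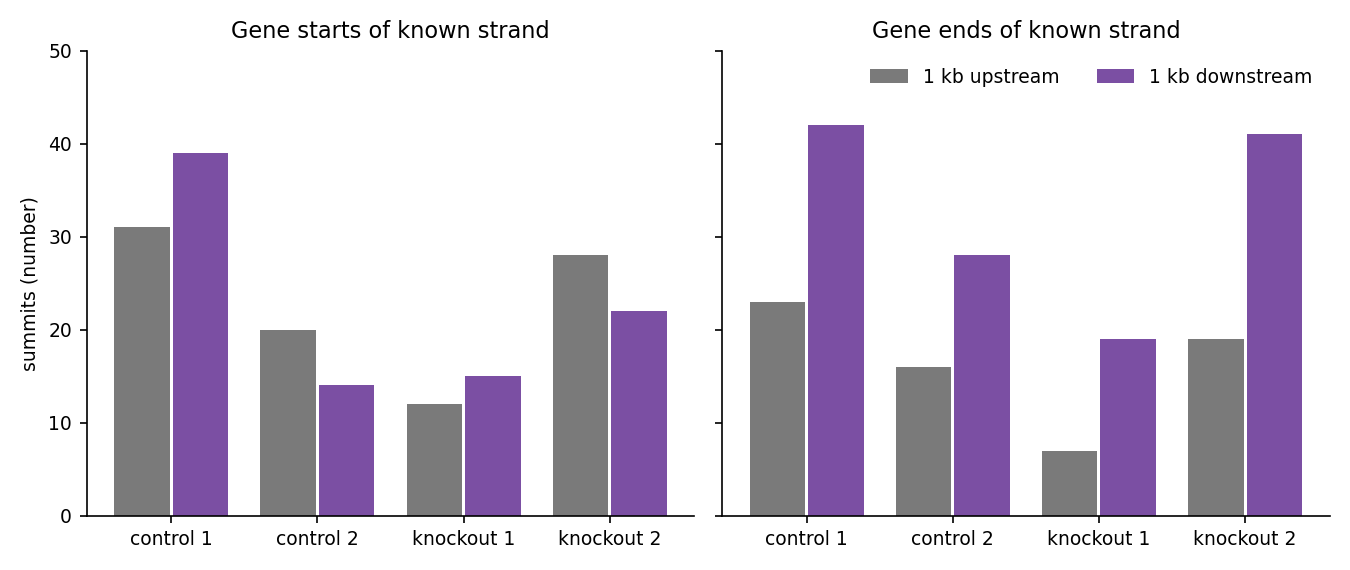
Number of summits within 1 kb upstream (grey) and downstream (purple) of gene starts (left) and gene ends (right) of known strand, per library, without the chromosome 6 array. At ends the downstream bar is the higher in each library; at starts the order differs between libraries.

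Recurrence was then examined, that is, whether a gene-end peak overlapped a peak of another library. Of the gene-end peaks, the controls had 35 (21.7%) and 30 (25.4%) that did so and the knockouts 35 (42.2%) and 39 (27.7%). Of all other peaks, 28.9%, 32.2%, 47.1% and 34.2% did. The gene-end value was lower in each library, by 7.15, 6.78, 4.94 and 6.58 percentage points, on average -6.36 (SD 0.98, n = 4; exact two-sided sign-flip permutation test, p = 0.13, the smallest possible). Without the array the mean difference was -13.2 percentage points, and within classes of equal −log10 q it was -8.43 (p = 0.13 each, same exact test). The size of the difference depended on the peaks kept: it was -0.716 for peaks whose −log10 q was 5 or more (p = 0.875, same exact test), -2.15 with lists of equal length (p = 0.25), -2.71 without control 1 and -4.16 without control 2 (p = 0.25 each, the smallest that 3 libraries allow). Among peaks of 7 to 10 fragments, 21.3%, 17.4%, 28.9% and 15.6% of gene-end peaks recurred, against 33.3%, 36%, 43.9% and 40.9% of the others. With 6 or fewer fragments the values were 7.04%, 3.03%, 0% (0 of 9 peaks, 95% Clopper-Pearson interval up to 33.6%) and 9.09% against 12.7%, 14.9%, 17.3% and 17.1%. With 11 or more fragments they were 55.6%, 52.6%, 65.7% and 75% against 59.4%, 64.6%, 69.3% and 65.5%. The gap was smaller than at 7 to 10 fragments in control 1, control 2 and knockout 1, and knockout 2 had the opposite order. All array gene-end peaks fell in this class. Without the array its values were 42.9%, 35.7%, 45.5% and 61.1% against 58.9%, 64.1%, 68.8% and 64.9%. The gene-end value was then the lower in each library.

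Merging the 4 lists wherever peaks overlapped by at least 1 bp gave 28843 regions, of which 424 held a gene-end summit. Of these, 364 (85.8%) were called in 1 library only, where 83.6% of all regions were: control 1 alone called 126, control 2 88, knockout 1 48 and knockout 2 102. The highest fold among them was at the end of Gm39701 (chromosome 1, 170949927 to 170950176), 47.8-fold in control 2 on 72 fragments, a region picked out after its value was seen. All 4 libraries called 14 gene-end regions (3.30%, against 2.09% of all regions), and 3 libraries called 14 (3.30%, against 3.72%). Both controls and neither knockout called 5 (1.18%, against 2.43%), and both knockouts and neither control called 6 (1.42%, against 1.09%). A control and a knockout together called 21 (4.95%, against 7.12%). Of the regions in all 4 libraries 7 lay in the array, and without it the share was 1.73% against 2.04%.

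At the level of genes, 404 of the 20422 had a peak at an end in at least 1 library (1.98%) and 57 in at least 2 (0.279%). They were 164, 115, 75 and 137 genes in control 1, control 2, knockout 1 and knockout 2. Exactly 1, 2, 3 and 4 libraries marked 347, 36, 12 and 9 genes. Predicted genes named Gm and a number made up 33 of the 57 genes of at least 2 libraries. Of 1327 such genes 85 had an end peak (6.41%), or 79 of 1321 without the array (5.98%), and of the 19095 other genes 319 did (1.67%). The genes marked in at least 2 libraries had a median span of 8424 bp, against 19058 bp for all genes.

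Shared promoter sequence was commoner among genes whose ends were called repeatedly. The promoter window runs from 250 bases before to 50 after an annotated start, and 16219 genes had one. Of these, 1393 (8.59%) shared a run of at least 50 bases with a window of another gene elsewhere. The count was 1326 of 15911 genes without an end peak (8.33%), 37 of 262 genes marked in 1 library (14.1%) and 30 of 46 genes marked in at least 2 (65.2%). Without the array the last value was 26 of 42 (61.9%). Sharing was examined in the promoter windows only, and whether the sequence under the peaks themselves is shared was not tested. Outside the array, peaks of any library lay over a promoter window at 35 genes. Reads from identical copies cannot be told apart, and how reads mapping to several places were handled is not given in the sources used here.

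Recurrence of the gene-end peaks was compared between genes with a shared and genes with an unshared window. At genes with a shared window, 20 of 37 gene-end peaks of control 1 recurred (54.1%), 17 of 32 of control 2 (53.1%), 21 of 31 of knockout 1 (67.7%) and 21 of 40 of knockout 2 (52.5%). At genes with an unshared window the values were 9 of 93 (9.68%), 7 of 52 (13.5%), 6 of 30 (20%) and 11 of 73 (15.1%). The difference averaged 42.3 percentage points (SD 4.6, n = 4), in the same direction in 4 of 4 libraries (exact two-sided sign-flip permutation test, p = 0.13), and 28.4 without the array. Peaks at genes with a shared window had a median of 9, 12, 13 and 8.5 fragments. Those at genes with an unshared window had 7, 7, 8.5 and 7. Among peaks with 10 or fewer fragments, 41.7%, 26.7%, 50% and 25% recurred at genes with a shared window. The values were 7.41%, 10%, 13.6% and 9.68% at genes with an unshared window. The peaks at genes without a window, 31, 34, 22 and 28 in number, belong to neither class, and 19.4%, 17.6%, 36.4% and 25% of them recurred. This division was chosen after the data were seen.

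**Figure D4:**
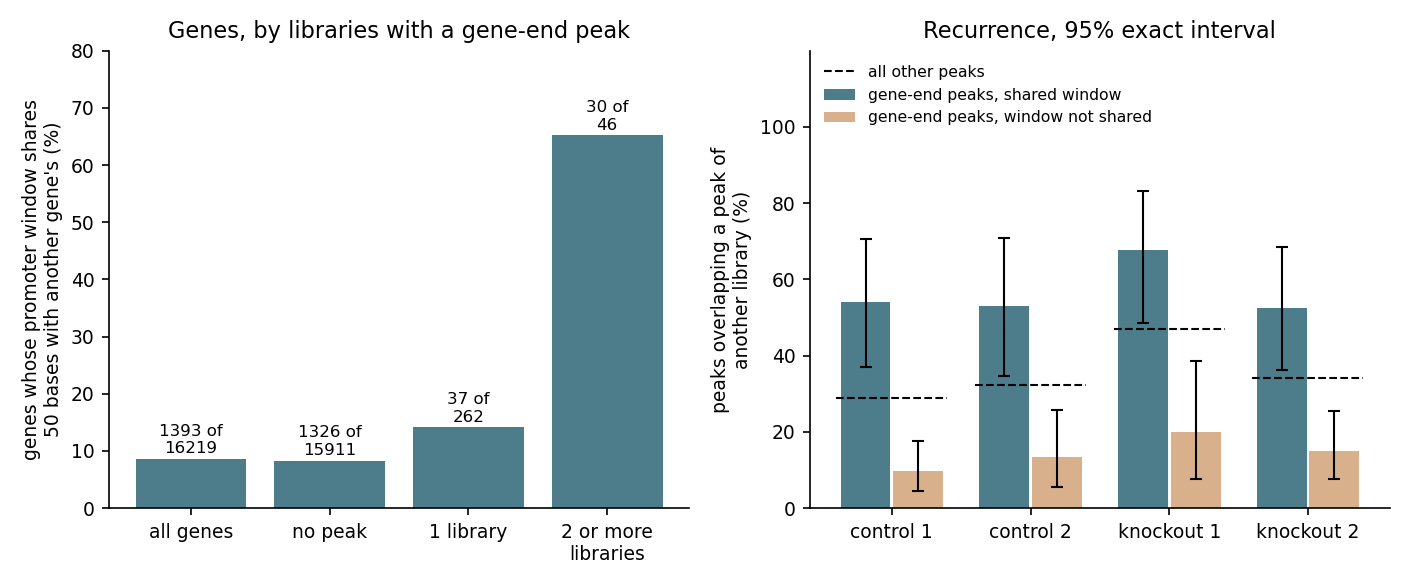
Left, the percentage of genes whose promoter window shares at least 50 bases with that of another gene, by the number of libraries with a gene-end peak. Right, the percentage of gene-end peaks that overlapped a peak of another library, at genes with a shared (blue) or unshared (tan) window, with 95% Clopper-Pearson intervals and the value of all other peaks as a dashed line. In each library the shared value lies above the dashed line and the unshared value under it.

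The chromosome 6 array held the largest block of recurrent gene-end regions. It was taken as the interval from Gm40369 to Gm52862 with 5 kb on each side. Its predicted protein-coding genes are Gm40369, Gm40367, Gm40365, Gm36327, Gm40364 and Gm40363. Past them lie the long non-coding RNA genes Gm52861 and Gm52862, and peaks there are counted in the array too. The interval also holds Rn4.5s, which RefSeq lists as a ribosomal RNA gene at chromosome 6, 47654921 to 47655094. The windows of Gm40369 (its second), Gm40367, Gm36327 and Gm40364 were identical over 300 bases. The array held 135 peaks in 46 regions, of which 15 were called in all 4 libraries, and 6, 10, 13 and 14 of its peaks were gene-end peaks in control 1, control 2, knockout 1 and knockout 2. Its peaks in the 4 libraries had 13 to 39 fragments and folds of 3.18 to 7.87. Their local background was high, with medians of 2.85, 3.49, 4.78 and 2.87 fragments, where gene-end peaks as a whole had 0.395, 0.470, 0.689 and 0.367. The array gene-end regions of all 4 libraries lay at the end of Gm40369, at the end of Gm40367 (2 regions), at Gm40365 (2 regions), at the end of Gm36327 and between Gm40364 and Gm40363. Not every library had a summit within 1 kb in each of them. The region at the end of Gm40369 had one in control 2 only, and 1 of those at Gm40365 in knockout 2 only. In the region at the end of Gm40367 (chromosome 6, 47664079 to 47665781) the strongest peak of each library had 6.71-, 5.46-, 6.95- and 5.75-fold. They had 26, 21, 39 and 21 fragments in the same order of libraries. The summits of these peaks in control 1 and knockout 2 lay beyond 1 kb. The gene-end peak of knockout 2 in this region was a weaker one, of 4.67-fold on 19 fragments, and control 1 had none there.

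Gm40369 had a gene-end region in both knockouts and neither control (chromosome 6, 47657703 to 47658631), of 4.51-fold in knockout 1 and 4.5-fold in knockout 2. Of the array regions called in 3 libraries, those at Gm40369 (2 regions), Gm40363 and the start of Gm40367 ranked among the highest, with that between Gm36327 and Gm40364. The last of these (chromosome 6, 47679106 to 47680084) was called at 5.49-fold in control 2, 4.68-fold in knockout 1 and 5.43-fold in knockout 2, with summits within 336 bp of a gene end. At the Gm40363 region and 1 of the Gm40369 regions, knockout 1 alone had a summit within 1 kb.

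A second set of genes with shared windows lay on chromosome X. The 10 linked genes are Gm52417, Gm52432, Gm52433, Gm52435, Gm52436, Gm52437, Gm52439, Gm52441, Gm52446 and Gm52448, predicted genes with a median span of 1758 bp. All 10 had a gene-end peak and 8 had peaks in at least 2 libraries. In control 1, control 2, knockout 1 and knockout 2, 6, 4, 3 and 6 of them were marked, by 9, 5, 3 and 8 peaks. These peaks were weak, with 5 to 11 fragments, folds of 4.18 to 7.88 and background medians of 0.413, 0.470, 0.689 and 0.392, so this set lacked the high background of the array. Since the spans are short, a summit can lie within 1 kb of both ends. At Gm52433, the region at the start (chromosome X, 77076836 to 77077572) was called at 6.45-fold in control 1, 6.06-fold in control 2 and 5.85-fold in knockout 2. The region at its end (chromosome X, 77076063 to 77076510) was called in both controls only, at 5.66- and 5.44-fold on 7 fragments each.

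On chromosome 14, 65 predicted genes were linked by shared runs and 18 of them had a gene-end peak, 5 in at least 2 libraries. The libraries marked 6, 6, 8 and 6 of these genes. Gm5795 had a region past its end (chromosome 14, 3196988 to 3197597) of 5.30-fold in control 1, 5.64-fold in knockout 1 and 5.88-fold in knockout 2. At the end of Gm3752 a region (chromosome 14, 7465753 to 7466313) had 6.71-fold in control 2 and 6.21-fold in knockout 2. A further set of 8 genes on chromosomes 1, 2, 5, 7, 11 and 16 had 6 marked members, among them Gm40814, whose start (chromosome 11, 8921009 to 8921402) was called at 13.4-fold in control 1, 8.16-fold in control 2 and 5.60-fold in knockout 1. On chromosome Y, 6 of 35 linked genes were marked, 1 in control 2 and 5 in knockout 2.

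Outside the array, 6 gene-end regions called in all 4 libraries are described. The highest folds were at Gm52666, a predicted gene whose window shares runs with 5 others (chromosome 4, 101865860 to 101866140). It had 37.3-fold in control 1, 29.3-fold in control 2, 14.9-fold in knockout 1 and 12.4-fold in knockout 2. The fragments were 51, 42, 23 and 16, with summits 974 to 994 bp from the annotated end. Both control values were above both knockout values, but each is on its own library's background and depth is not given. A difference between groups was not tested here and is not read from these values. Past the end of Wls, which carries Wnt proteins to the cell surface, a region (chromosome 3, 159939413 to 159939676) had 11.4-, 7.28-, 5.88- and 9.73-fold. Its background was 51.7, 64.3 and 39.3 fragments in control 2, knockout 1 and knockout 2, far above that of most gene-end peaks, and its fragment number could not be recovered in control 1. Its summits fell 867 to 885 bp past the end.

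Adgrf2, an adhesion G protein-coupled receptor gene of unknown strand here, had a region at 1 end (chromosome 17, 42743552 to 42744421) with folds of 16.7 and 8.97 in the controls and 9.92 and 8.02 in the knockouts. Cbwd1 had a region (chromosome 19, 24917375 to 24919391) of 12.2-, 8.12-, 9.86- and 7.74-fold, in which the summit of control 1 lay beyond 1 kb. In both, control 1 was the highest and the other 3 libraries overlapped between groups. Upstream of Tmprss2, the gene of a transmembrane serine protease, a region (chromosome 16, 97660093 to 97660916) had 6.29-, 6.98-, 6.98- and 9.60-fold. Only the controls had a summit within 1 kb there, 797 and 865 bp upstream of the span's start. The region at the end of Gm21119 (chromosome 8, 20646663 to 20649953) had 10.3-, 6.81-, 8.05- and 8.33-fold, with the summit of control 2 alone within 1 kb. Its background was 1.91, 2.97, 2.85 and 2.36 fragments, and Gm21119 belongs to a set of 4 genes linked by shared runs.

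Regions called in 3 libraries outside the array numbered 8. Polr3e, a subunit of RNA polymerase III, had a region in the last part of its span (chromosome 7, 120946286 to 120947098) of 9.32-fold in control 1, 6.6-fold in knockout 1 and 12.9-fold in knockout 2, with no call in control 2. Tmsb4x, which encodes the actin-binding peptide thymosin beta 4, had a region upstream of the span's start (chromosome X, 167213512 to 167214265) of 6.11-fold in control 1, 4.76-fold in control 2 and 7.08-fold in knockout 2. Ces2h, a carboxylesterase gene, had a region inside its start (chromosome 8, 105001468 to 105001922) of 5.44-fold in control 2, 5.89-fold in knockout 1 and 5.11-fold in knockout 2. Gm51573 (5.93-, 4.75- and 4.07-fold in control 1, control 2 and knockout 1) and Gm52441 (5.02-, 5.44- and 5.12-fold in control 1, control 2 and knockout 2) completed the class. The summit of control 2 at Gm51573 and that of control 1 at Gm52441 lay beyond 1 kb. The background at Gm51573 was 2.88, 3.85 and 4.40 fragments in control 1, control 2 and knockout 1. Its promoter window shares a run with that of Gm51593. Of all regions named, those of Tmsb4x, Ces2h, Gm40814, Gm5795, Gm52441 and Gm3752 and the lowest of the array ranked lower than the named-gene rule reached and were named after their values were seen.

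**Figure D5:**
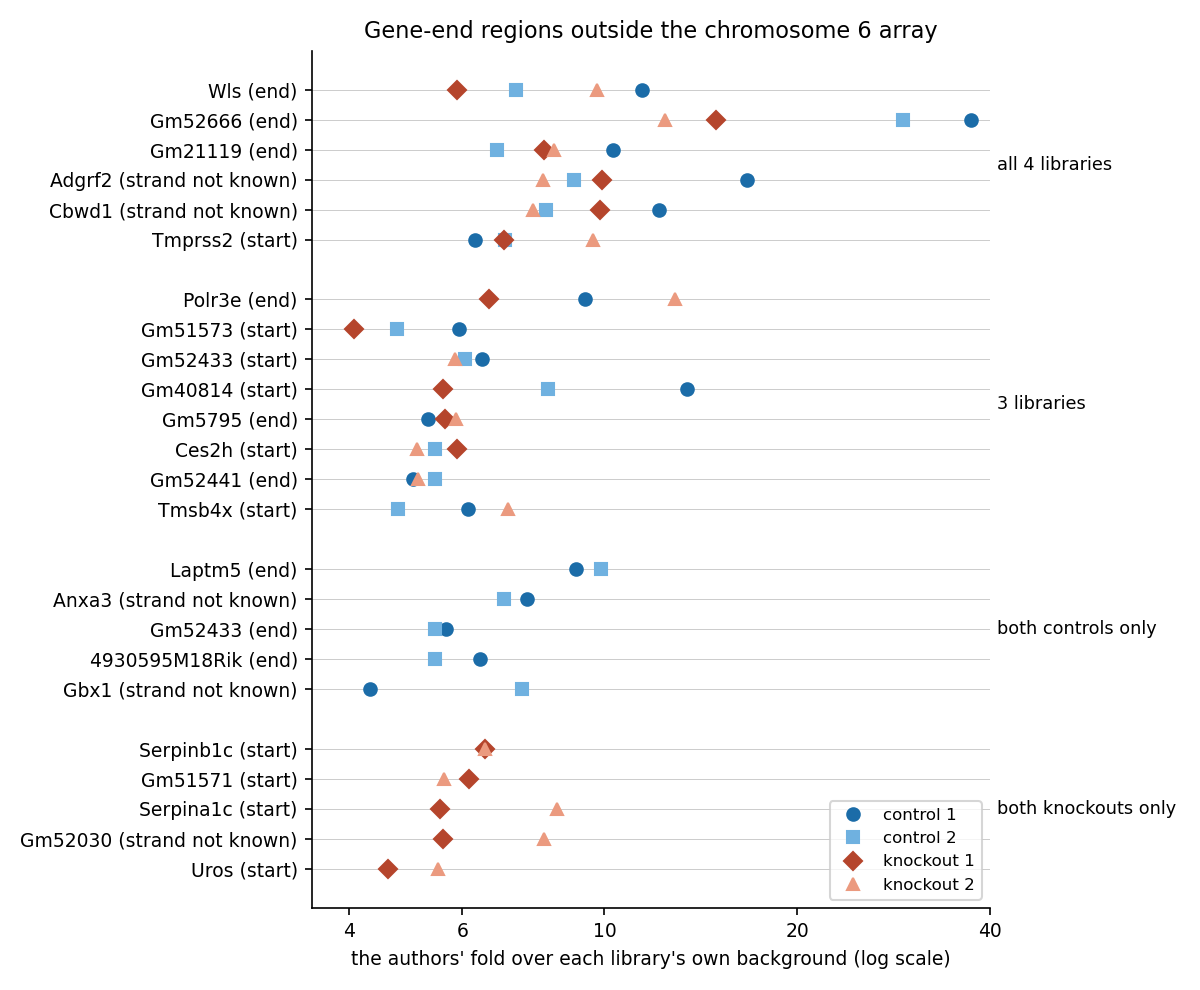
The authors' fold over the background of each library (log axis) for described gene-end regions outside the chromosome 6 array, 1 row per region, grouped by the libraries that called it. Only regions of all 4 libraries, of 3 libraries, of both controls only and of both knockouts only are drawn. Gm52666 is called at 12.4- to 37.3-fold; most other points lie between 4- and 10-fold.

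Regions exclusive to a group were few. Both controls and neither knockout called the end of Laptm5, a lysosomal membrane protein gene of blood cells (chromosome 4, 130935100 to 130935445), at 9.01-fold in control 1 and 9.86-fold in control 2 on 14 and 15 fragments. They also called Anxa3, a calcium-dependent phospholipid-binding annexin (chromosome 5, 96846615 to 96847063), at 7.58- and 6.98-fold on 13 fragments each. The other 3 were Gbx1, a homeobox gene (4.30- and 7.44-fold), the end of 4930595M18Rik (6.40- and 5.44-fold) and the end of Gm52433 given above. Laptm5 and Anxa3 are not cardiomyocyte-specific genes, and whether other cells contributed was not tested.

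Both knockouts and neither control called 5 regions outside the array, 4 of them at starts. Serpina1c, an alpha-1 antitrypsin gene, had a region 583 and 521 bp inside its start (chromosome 12, 103904289 to 103904569) of 5.54-fold in knockout 1 and 8.44-fold in knockout 2. Serpinb1c, another serine protease inhibitor gene, had a region upstream of its start (chromosome 13, 32941066 to 32941524) of 6.51- and 6.52-fold. Uros, the heme synthesis gene of uroporphyrinogen III synthase, had a region upstream of its start (chromosome 7, 133710700 to 133711129) of 4.60- and 5.49-fold on 12 and 9 fragments. The start of Gm51571 (6.15- and 5.62-fold) and an end of Gm52030 (5.60- and 8.05-fold) were the rest. Gm51571 had 3 gene-end regions, and control 2 also called a gene-end peak at this gene, in another of them. The promoter window of Serpina1c shared runs with those of Serpina1a, Serpina1b, Serpina1d and Serpina1e. The called region lies inside the gene, outside that window, and whether its own sequence is shared was not tested. Single regions were not tested, since 2 libraries against 2 cannot give a p under 0.33.

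Among the 21 regions of 1 control and 1 knockout, 4 lay in the array. Mmd had a region past its end (chromosome 11, 90278498 to 90279024) of 6.80-fold in control 2 and 14.6-fold in knockout 2. The start of Fam214b, which lies back to back with Unc13b, a gene of synaptic vesicle priming, had a region (chromosome 4, 43046034 to 43046596) of 5.57-fold in control 1 and 9.51-fold in knockout 2. Its summits fell 155 and 240 bp upstream of the Fam214b start, over the window printed above. Irak2, a kinase of interleukin-1 receptor signalling, had 5.02-fold in control 1 and 4.39-fold in knockout 2 upstream of its start. These genes were chosen after their values were seen.

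Peaks lay directly over a promoter window at 17, 10, 4 and 15 genes in the 4 libraries and at 39 of 16219 genes in all, or 35 outside the array. Fam214b was the only gene outside the array whose window was overlapped in 2 libraries. Windows of the 157 genes outside the array with a summit within 1 kb of the start had a median GC content of 56.0%, against 57.3% for all windows. CpG-rich windows, with at least 50% GC and an observed-to-expected CpG ratio of at least 0.6, made up 74 of 157 (47.1%), against 49.3%. By library they were 44.3% and 58.8% in the controls and 37.0% and 37.5% in the knockouts, so control 2 alone lay above the level of all windows. Short motifs, 8 in number, were searched as letters on both strands of the 300 bases. GGGCGG was in 38.2% of these windows against 49.9% of all, and CCAAT in 47.1% against 38.8%. By library, GGGCGG was in 35.7%, 52.9%, 25.9% and 35.4%, so control 2 stood above the level of all windows and the other 3 under it. CCAAT was in 47.1%, 55.9%, 44.4% and 41.7%. TGACGTCA was in 0 of 157, against 2.49% of all windows. TATAAA was in 10.2% against 11.3%, AGGTCA in 14.0% against 14.7% and CACGTG in 10.8% against 8.34%. CCGGAAG was in 8.92% against 12.8% and GATAAG in 9.55% against 6.30%. These are counts of letters, and genes in shared groups are not independent of each other.

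Lists of heart genes and of genes of other cell types were examined for gene-end peaks. Of 271 genes in 16 lists, 6 had a gene-end peak (2.21%, near the 1.98% of all genes), and 0 had a peak in 2 libraries. At that share a list of this size holds few marked genes or 0, so nothing is read from the single lists. The lists of cardiac transcription factors (21 genes), calcium handling (16), ion channels and gap junctions (15), intercalated disc and costamere (20), fatty acid oxidation and mitochondria (23), fetal and stress genes (10), arginine methylation and coactivators (18), nuclear receptors (32), fibroblast markers (12) and smooth muscle and pericyte markers (9) had 0 genes with a gene-end peak. At starts, Csrp3, the muscle LIM protein of the sarcomere list (1 of 28), had 5.12-fold in knockout 2, 727 bp upstream. Pgk1, the glycolytic phosphoglycerate kinase (1 of 18), had 7.46-fold in knockout 1 on 11 fragments, 289 bp upstream, over its printed window.

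The remaining listed genes belonged to other lists. Afp, the fetal liver gene alpha-fetoprotein of the non-cardiac list (1 of 16), had 4.08-fold in control 2, 506 bp inside its start. Past its end, the cell cycle inhibitor Cdkn1a (1 of 20) had 4.76-fold in control 2, and near its end the endothelial receptor Flt1 (1 of 12) had 4.97-fold in knockout 1. Csf1r, the macrophage growth factor receptor (1 of 10), had 5.44-fold in control 2. Marker lists of other cell types thus gave 3 marked genes and the sarcomere list 1, each in 1 library, and these calls do not measure the purity of the sorted nuclei. Gene families taken by symbol lay on both sides of the 1.98% of all genes. Above it were beta-defensins (2 of 42, 4.76%), collagens (2 of 44, 4.55%), cytochrome P450 genes (4 of 99, 4.04%), cytosolic ribosomal protein genes (2 of 84, 2.38%; Rpl19 and Rpl32, both in knockout 2) and genes named by a Rik clone (9 of 421, 2.14%). Under it were keratins and keratin-associated proteins (2 of 112, 1.79%), zinc finger genes (3 of 416, 0.721%) and solute carriers (2 of 375, 0.533%). Replication-dependent histones (0 of 63), respiratory chain and ATP synthase genes (0 of 92) and taste and formyl peptide receptors (0 of 45) had none. These counts are small, and no difference between families was tested.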

How the data were processed

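H3R17me2a ChIP-seq peak lists of 2 control and 2 knockout libraries were analysed, and no peak list of the 4 input libraries was analysed here. The authors deposited 1 narrowPeak list per ChIP library, with replicates not pooled, per the labels. The submitters' processing notes name Bowtie2, MACS2, DiffBind, FastQC and MultiQC and the build mm10. The sources used here give no versions or settings. In the deposited lists the fold is a ratio, summit fragments over local background with 1 added to both, and −log10 p and −log10 q give the significance of each peak. Whole fragment numbers and backgrounds were recovered from the fold and p (tolerance 0.01 in −log10 p) for 99.3% to 99.7% of peaks, a step tested on simulated data.

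Summits were compared with RefSeq gene spans (GRCm38.p6). Strand came from the RefSeq promoter table, for 79.4% of genes; a start is the outer end of the span. All 271 listed genes matched. The replicate number is only a number: the labels give no pairing. Shares were compared by exact permutation tests over libraries; with 2 against 2 no p under 0.33 is possible. Named were the genes of the highest 12 regions in all 4 libraries and the highest 8 in both controls only, both knockouts only and 3 libraries, taking for each its lowest −log10 q percentile among the calling lists, then listed genes with a peak, and genes of regions of 100-fold or more. A gene reached by that rule was left out of the text, so 13 of 14 regions of all 4 libraries are described. Members, lists and tests were chosen with earlier results of these data known. Alternatives were −log10 q of at least 5, other distances, autosomes, equal lists, 50% reciprocal overlap, receptor genes included, each library left out, a replicate block, no regions of 100-fold or more, classes of equal −log10 q and, added later, no array, the summit at the end in every caller and other run lengths. Python 3.11.15, NumPy 2.4.6, SciPy 1.17.1, pandas 2.3.3 and matplotlib 3.10.9 were used.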

Additional observations from a re-analysis of the deposited data

How the results depend on the processing

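The lower recurrence of gene-end peaks and the higher gene-end share in knockouts kept their sign under each alternative run, with sizes of -14.2 to -0.716 and 0.0361 to 0.461 percentage points. The first of these values is without the array and within classes of equal −log10 q. The counts of regions did not all keep their size. In all 4 libraries there were 6 regions with summits within 0.5 kb, 23 within 2 kb, 8 with 50% reciprocal overlap, 7 without the array and 6 with the summit at the end in every caller. In both controls only there were 2 within 0.5 kb, 14 within 2 kb, 3 on autosomes and 3 with lists of equal length; leaving out 1 library gave 8 to 131, since fewer libraries then define the class. In both knockouts only there were 3 with −log10 q of at least 5 and 2 within 0.5 kb; leaving out 1 library gave 8 to 109. The difference in start share ranged from -2.61 (without control 2) through -0.994 (without knockout 1) to 6.32 when 1 library was left out. With a replicate block, pairing libraries by number, the differences were 0.278 and 1.85 percentage points (exact p = 0.5 each), and no call changed. Of recurrent genes, 65.2% shared a run of 30 bases and 58.7% a run of 100 bases with another gene's window. The options without the array, with the summit in every caller and with other run lengths were chosen after seeing the data. Few fragments per summit limit what a missing call shows.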

Other observations

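Ends of genes of other kinds were counted in the same way. Of 63 RefSeq ribosomal RNA genes, 49 (77.8%) had a summit within 1 kb of an end and 12 had them in all 4 libraries; 56, 39, 17 and 40 peaks of control 1, control 2, knockout 1 and knockout 2 lay there. Of 12727 long non-coding RNA genes, 346 had such a peak (2.72%), with 12 in all 4 libraries, and of 9944 pseudogenes 211 did (2.12%). Of the 1465 olfactory and vomeronasal receptor genes left out of the main count, 17 had one (1.16%) and 0 had one in all 4 libraries. Of 408 transfer RNA genes, 5 had one.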
